A study of Mus musculus with 8 samples.

Results

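Open chromatin was examined around 5 genes, the early growth response genes Egr1, Egr2 and Egr3 and the genes of their corepressors, Nab1 and Nab2, in alveolar macrophages (AMs) with and without retinoid X receptors (RXRs). A region was taken when a peak in any of the 8 libraries overlapped one of these gene bodies or the 20 kb on either side of it, and peaks of different libraries were merged where they shared a base. This gave 37 of the 82424 merged regions of the series: 8 at Egr1, 8 at Egr2, 10 at Egr3, 3 at Nab1 and 8 at Nab2. Of the 37 regions, 34 were listed in 2 or more libraries and 23 in all 8.

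The study compared AMs from adult mice in which Cre recombinase is driven by the Cd11c promoter and both Rxra and Rxrb carry loxP-flanked alleles (CD11cCre+ Rxrabfl/fl, called KO here) with AMs from Cre-negative mice carrying the same floxed alleles (CD11cCre- Rxrabfl/fl, called WT here). The controls were littermates of the KO line and therefore carry the floxed alleles but no Cre. Cd11c is also expressed by dendritic cells, so the deletion is not limited to AMs in the animal, and mice of both sexes were used in the study. Chromatin was profiled by ATAC-seq, in which Tn5 transposase inserts adapters into accessible DNA, with 4 KO libraries (replicates 1_2, 1_3, 2 and 3) and 4 WT libraries (replicates 1_2, 1_3, 3 and 4). The paper describes the profiled cells of both genotypes as sorted mature AMs, and its methods give bronchoalveolar lavage as their source. All its mice shared the same strain background. It also reports fewer mature and more immature AMs in KO lungs, so mature AMs are only part of the KO population. Legends of a supplementary figure instead name the KO cells as immature AMs, which leaves the subset in the KO libraries uncertain here. The study states an n per genotype equal to the number of libraries. No source used here says whether the libraries numbered 1_2 and 1_3 came from separate animals, and if they did not, p-values measure only the spread between these libraries, which may in part be technical.

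EGR1, EGR2 and EGR3 are zinc-finger transcription factors that bind a shared GC-rich element, and their genes are immediate early genes: they are transcribed within minutes of growth factor, cytokine or inflammatory signals. Much of this induction runs through serum response factor (SRF), which binds the CArG box together with ETS-family ternary complex factors or with myocardin-related cofactors. NAB1 and NAB2 have no DNA-binding domain of their own. They bind EGR proteins and repress their targets, in part through the CHD4-containing NuRD complex. Nab2 is itself an EGR target, so EGR proteins and NAB2 form a feedback loop. In macrophages EGR factors have been studied in monocytic differentiation and in the response to inflammatory stimuli.

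The lists held between 60363 peaks (KO replicate 1_2) and 72484 peaks (WT replicate 1_3). The unit used here is the summit tag, the number of 200-bp extended transposase cuts stacked at a peak's summit, worked back as a whole number from each peak's fold and p-value. Over the regions that all 8 libraries list, the median was 57 to 68 tags in KO and 60 to 91 in WT libraries, with the highest value in WT replicate 1_3. An intronic region of Rxra, chr2:27744546-27744950, had 38, 46, 38 and 42 tags in the WT libraries and no listed peak in the KO libraries. It was picked for this pattern, which 596 regions of the series had, and is not known here to lie in the deleted segment, so it does not check the labels. Peaks lay within 1 kb of the 5′ ends of 7 of 8 AM marker genes in every library (all but Chil3). Of the other marker lists, 4 are given here and had open promoters in both genotypes, with the dendritic cell genes Flt3 and Zbtb46 at 2 of 2, the neutrophil genes at 2 of 3 (all but Ly6g), the epithelial genes at 1 of 2 (all but Sftpc) and the monocyte genes at 2 of 3, or 3 of 3 in KO replicate 3 and WT replicate 3. An open promoter does not show that a gene is expressed. In bulk libraries a smaller share of cells with an open region and a less accessible region in each cell cannot be told apart.

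The sequences under the summits were not used to choose the regions, but the motifs were chosen with earlier results of these data known. The CArG box is also the SRF element named above for the induction of Egr genes. Among the motifs searched under the summits, the CArG box was found in a larger share of these regions than of the series. So were the EGR element and the ETS site given below, each in 1 region. A CArG box, matched by its name's consensus on both strands within 100 bp of the strongest summit, was found in 5 of the 34 regions listed in at least 2 libraries (14.7%), against 871 of 72711 such regions in the series (1.20%). The 5 regions were the promoter regions of Egr1, Egr2 and Egr3 and the Egr3 regions at -2.28 kb and -11.1 kb, so none lay at Nab1 or Nab2. Distances here run from the 5′ end of each gene to the strongest summit, and are negative upstream. The Egr1 promoter region held 3 matches and the others 1 each. The matched Egr2 sequence is shown 5′ to 3′ on the plus strand of GRCm38 (mm10), as an example of this element, with the CArG box in capitals. It is the RefSeq promoter entry without its bases past the start.
Egr2, before the transcript start, chr10:67537619-67537868, in an intron of the longer transcripts Egr2-205 and Egr2-206: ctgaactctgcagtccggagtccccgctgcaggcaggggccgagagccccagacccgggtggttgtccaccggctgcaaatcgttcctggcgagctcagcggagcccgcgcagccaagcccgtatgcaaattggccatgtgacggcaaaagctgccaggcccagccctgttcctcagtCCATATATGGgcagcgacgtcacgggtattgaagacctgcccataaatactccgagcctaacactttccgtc

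The box, CCATATATGG, stood at positions 179 to 188 of the printed stretch. Among the 300-base RefSeq promoter windows, which hold 250 bases before and 50 after a start, 4 of the 7 entries for these genes held a CArG box. All 4 were overlapping or neighbouring windows of Egr2, and the share over all 32851 entries was 1.63%.

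The other motifs searched are given as shares of the same 34 and 72711 regions. The EGR element itself (GCGTGGGCG or GCGGGGGCG, both strands) was found in 1 region (2.94%), at the Nab2 promoter, against 1.20% of all regions. In the RefSeq promoter windows the Nab1 entry, chr1:52500399-52500698, held 3 matches to the EGR element, which 3.47% of all entries had at least once. An AP-1 site (TGAGTCA or TGACTCA) was found in 1 region (2.94%, against 9.48% of all), a PU.1 site (GAGGAAGT) in 3 (8.82% against 10.7%) and an ETS site (CCGGAAGT) in 1 (2.94% against 1.85%). No region held the cyclic AMP response element TGACGTCA, against 0.954% of all. A DR1 element, the arrangement of 2 AGGTCA half-sites spaced by 1 base that RXR heterodimers with PPARs bind, was found with at most 2 mismatches in 1 region (2.94%, against 4.13% of all), inside Bin3 at +24.4 kb from Egr3. The Egr and Nab regions were richer in G and C than the series, with medians of 58.2% and 50.7% over 201 bases. These matches are descriptions of letters and were not tested.

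**Figure D1:**
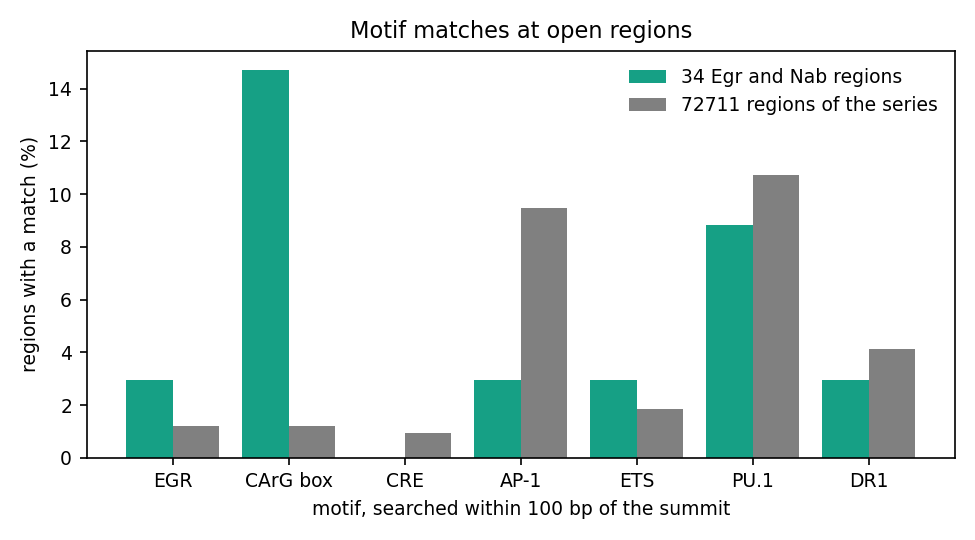
Share of regions (%) with at least 1 match to each motif within 100 bp of the strongest summit, for the 34 Egr and Nab regions listed in at least 2 libraries (green) and the 72711 such regions of the series (grey). The CArG box was found in 14.7% of the Egr and Nab regions and 1.20% of all. The EGR and ETS motifs were found in 2.94% each, against 1.20% and 1.85%. AP-1 and PU.1 sites were found in 2.94% and 8.82% against 9.48% and 10.7%.

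The comparison of KO with WT asked whether accessibility around these genes differs when AMs lack RXRs. At the EGR genes no region listed in all 8 libraries passed the test in either direction. In the Nab2 window the promoter region and the region next to it were higher in KO. Both lay nearest to a 5′ end of the neighbouring gene Nemp1, so they cannot be assigned to Nab2 alone. Over the 5 genes, 2 of 23 tested regions were higher in KO at an adjusted p under 0.05 (limma on log2 summit tags, Benjamini-Hochberg over all 47499 regions tested), where the share over all regions was 5.81%. None of the 23 was lower, where the share over all regions was 7.03%, and none was lower at an unadjusted p under 0.05, while 5 were higher at that level. Over all regions 12.1% were lower and 14.1% higher at that level. The median log2 difference (KO minus WT) was 0.08 over the 23 regions and 0.04 over all regions tested. The difference was positive at 18 of the 23 regions, and at 57.6% of all.

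**Figure D2:**
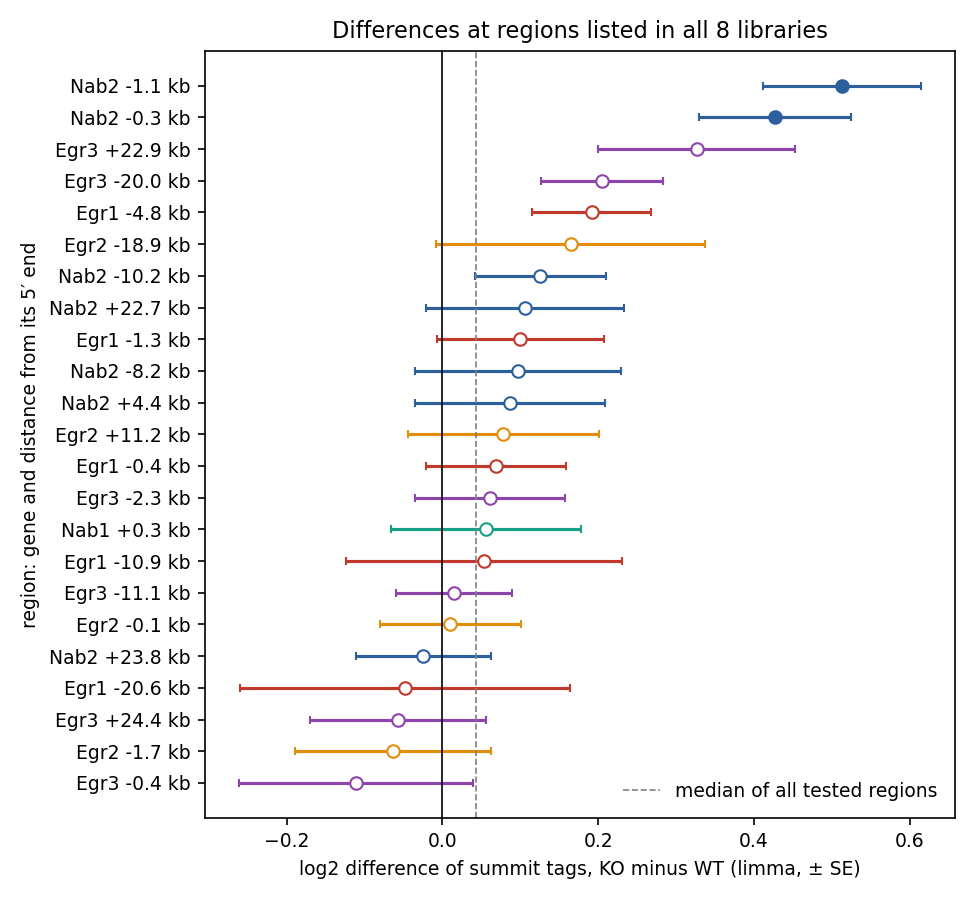
Log2 difference of summit tags, KO minus WT, with its SE from limma, for the 23 regions listed in all 8 libraries, each named by its gene and the distance of its summit from the 5′ end. Filled points are the 2 regions with an adjusted p under 0.05 in limma, both in the Nab2 window and nearest to Nemp1 (0.51 and 0.43). Open points are the others, colours mark the genes, and the dashed line is the median of all regions tested (0.04).

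Nab2, the EGR corepressor that is induced along with the Egr genes, lies on chr10:127660918-127668568 (minus strand, ENSMUSG00000025402). Its promoter region, chr10:127666472-127667278, holds the 5′ end of Nab2-201 and also 5′ ends of Nemp1, which encodes a nuclear envelope protein and is transcribed the other way. Its summit lay at -0.267 kb, in an exon of Nemp1-205 and an intron of Nab2-204, so accessibility there cannot be assigned to either gene. At its summit stood 146, 144, 139 and 128 tags in the KO libraries (in the order 1_2, 1_3, 2 and 3) and 113, 141, 120 and 108 in the WT libraries (1_2, 1_3, 3 and 4), an order kept for all values below. After each library was centred on its median over the regions listed in all 8, every KO library (7.19 to 7.30 on the log2 scale) stood above every WT library (6.72 to 6.93), although WT replicate 1_3, with the highest median of all libraries, overlapped the KO libraries in tags. The difference was 0.43 ± 0.10 (log2, SE), a 1.34-fold higher level in KO, with an adjusted p of 0.00186 in limma.

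The adjoining region, chr10:127667343-127668469, lies in introns of Nemp1 and of Nab2-204 and ends just short of the 5′ end of Nab2-204. Its summit was at -1.12 kb. It had 160, 145, 166 and 121 tags in the KO libraries and 111, 154, 115 and 103 in the WT libraries. The centred values again did not overlap, with KO at 7.17 to 7.55 and WT at 6.72 to 6.87. The difference was 0.51 ± 0.10, or 1.43-fold, with an adjusted p of 0.000279 in limma. For both regions the exact permutation test over the 70 ways of drawing 4 of the 8 libraries gave p = 0.0286 (two-sided), the smallest p that this design allows. Both calls were lost when libraries were scaled by their genome-wide background tags instead of their medians, with differences of 0.37 ± 0.16 (adjusted p = 0.211) and 0.46 ± 0.16 (adjusted p = 0.0746) in limma.

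Sequence at the summits of these 2 regions is shown because they carry the differences called. Both are on the plus strand of GRCm38, and capitals mark the single match to the EGR element, which reads on the minus strand. The second stretch held no match to any motif searched.
Nab2, promoter region, chr10:127666877-127667077: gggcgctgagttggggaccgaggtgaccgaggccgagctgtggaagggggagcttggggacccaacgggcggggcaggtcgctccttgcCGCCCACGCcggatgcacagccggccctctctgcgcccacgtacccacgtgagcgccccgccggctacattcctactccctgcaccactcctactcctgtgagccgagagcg
Nab2, adjoining region, chr10:127667727-127667927: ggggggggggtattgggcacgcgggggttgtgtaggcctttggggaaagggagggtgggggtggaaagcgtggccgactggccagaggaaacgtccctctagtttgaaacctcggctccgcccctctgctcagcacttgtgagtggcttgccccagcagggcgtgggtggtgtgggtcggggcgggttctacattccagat

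Another 5 of the 8 Nab2 regions were tested and had differences between -0.02 and 0.13, none of which passed. The strongest of the Nab2 window, in an intron of Nemp1 at -10.2 kb and next to a 5′ end of the noncoding gene Gm16230, had 240, 213, 196 and 185 tags in KO and 220, 251, 229 and 187 in WT. Its centred values did not overlap either, but the difference was 0.13 ± 0.08 and its adjusted p was 0.356 in limma. The regions at +23.8 kb and +22.7 kb lie at the promoter and in an intron of Stat6, the transcription factor of interleukin-4 signalling, with differences of -0.02 ± 0.09 and 0.11 ± 0.13. The intronic Nab2 region at +4.43 kb had 72 to 79 tags in KO and 67 to 100 in WT. The last Nab2 region, at +24.4 kb upstream of Stat6, was listed in 2 libraries of each genotype. Over the 5 genes, every KO library stood above every WT library at 4 of the 23 regions, 3 of them at Nab2 and the other at Egr1, where 8.25% of all regions did. No region had every KO library below every WT library, which 7.91% of all regions had.

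**Figure D3:**
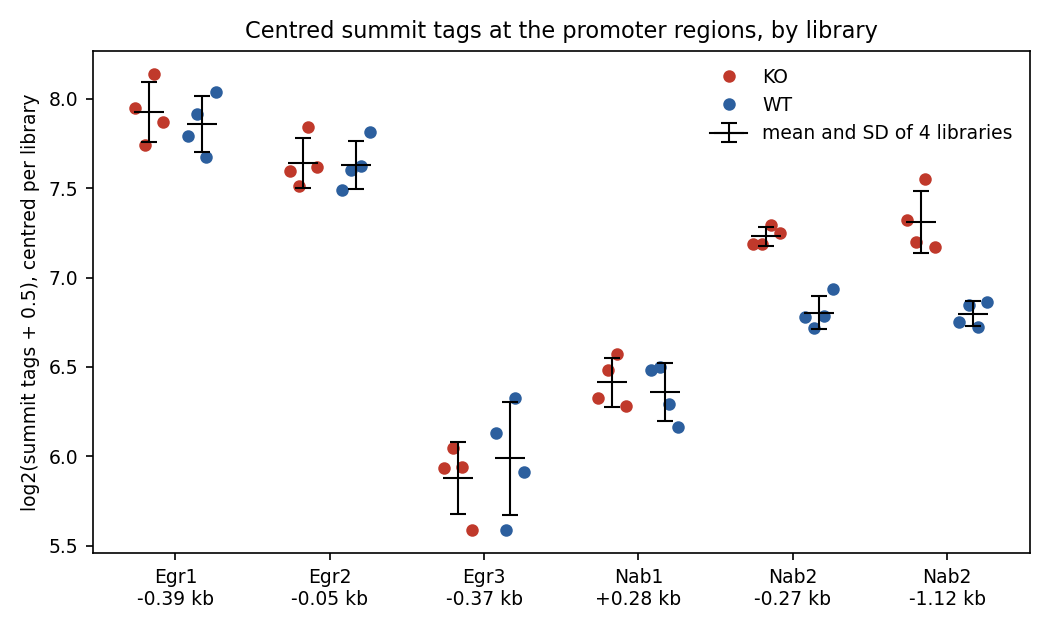
Log2(summit tags + 0.5), each library centred on its median, at the promoter region of each gene and at the adjoining Nab2 region, for 4 KO (red) and 4 WT (blue) libraries, with the mean and SD in black. KO and WT points overlapped at Egr1, Egr2, Egr3 and Nab1 and were apart at both Nab2 regions.

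Nab1, the gene of the other corepressor, lies on chr1:52457294-52500679 (minus strand, ENSMUSG00000002881) and had the fewest regions, 3. The promoter region, chr1:52499799-52501070, had 80, 88, 84 and 65 tags in KO and 92, 121, 85 and 63 in WT libraries. The genotypes overlapped, and the difference was 0.06 ± 0.12 (adjusted p = 0.815 in limma). Intronic regions lay at +29.9 kb and +29.1 kb from the 5′ end of Nab1-205. The first was listed in all 4 WT libraries, with 14 to 19 tags, and in 1 KO library, with 13. The second was listed in WT replicate 1_3 alone, with 19 tags. These counts were near the smallest summits in the lists, 6 to 9 tags.

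Egr1, whose product acts in growth and stress responses of many cell types, lies on chr18:34859823-34864984 (plus strand, ENSMUSG00000038418). Its promoter region, chr18:34860357-34861330, holds the 5′ end of Egr1-202, and its summit at -0.387 kb lies in the 5′ untranslated exon of the longer transcript Egr1-201. It had 248, 211, 250 and 197 tags in KO and 229, 324, 223 and 233 in WT libraries. These overlapped, with a difference of 0.07 ± 0.09 (adjusted p = 0.676 in limma). The 5′ end of Egr1-201 lay in a separate region at -1.31 kb, which had 100 to 115 tags in KO and 104 to 148 in WT and a difference of 0.10 ± 0.11.

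The strongest region of the Egr1 window was not at its promoter but between genes at -4.79 kb, chr18:34856149-34856613. It had 330, 311, 288 and 275 tags in KO and 290, 360, 310 and 267 in WT, which put it on average at the 91.7th percentile of peak strength within a library. After centring, every KO library (8.30 to 8.36) stood above every WT library (8.07 to 8.24). The difference of 0.19 ± 0.08, or 1.14-fold, had an unadjusted p of 0.0164 and an adjusted p of 0.0934 in limma and did not pass. Of the fits that left out 1 library, it passed only in that without WT replicate 4 (adjusted p = 0.0421 in limma).

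A weaker region of the Egr1 window was listed in WT only. The region at -6.55 kb, chr18:34854530-34854779, between genes, had 67, 66, 64 and 59 tags in the WT libraries and no peak in any KO library. The local background there was high, at 13.1 to 17.2 tags, and the WT peaks were 237 to 247 bp wide, where the shortest peak in every list is 200 bp. The background of the KO libraries was estimated from the nearest region shared by all libraries. On that basis 24 to 30 tags were the least that a KO summit needed for a listing, if the peak was wide enough. These are lower limits, since they rest on the weakest peak in each whole list. The KO tags at this position are not in the peak lists, so no fold change is given. A neighbouring region at -5.73 kb was listed in 2 KO and 2 WT libraries with 45 to 55 tags.

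The remaining Egr1 regions were weaker. The region at -20.6 kb, at the 5′ end of Reep2, had 13 to 21 tags in KO and 13 to 25 in WT. The region at -10.9 kb had 29 to 55 tags in KO, with the lowest in replicate 2, and 44 to 59 in WT. At +17.4 kb, chr18:34878414-34878743, a peak was listed in 3 WT libraries, with 20, 13 and 18 tags in replicates 1_3, 3 and 4. It was missing from WT replicate 1_2 and from every KO library. For the KO libraries 6 to 8 tags were estimated as the least that could be listed, if the peak was wide enough. That estimate is a lower limit, since the smallest summit in the whole list of KO replicate 1_2 had 9 tags.

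Egr2, which is needed for peripheral myelination and is induced in macrophages by interleukin-4, lies on chr10:67535475-67542188 (plus strand, ENSMUSG00000037868). Its promoter region, chr10:67537269-67538012, was also its strongest. It had 194, 180, 203 and 165 tags in KO and 185, 260, 215 and 199 in WT libraries, and the genotypes overlapped. The difference was 0.01 ± 0.09 (adjusted p = 0.959 in limma). The other regions listed in all 8 libraries, at -18.9 kb, -1.73 kb and +11.2 kb, had differences of 0.16 ± 0.17, -0.06 ± 0.13 and 0.08 ± 0.12. The last of these lies at the 5′ end of Ado, the neighbouring gene for cysteamine dioxygenase.

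The Egr2 window held the second region listed in all WT and no KO libraries. It lies at +7.34 kb, chr10:67545064-67545359, in the untranslated part of an exon of Ado. The WT libraries had 52, 55, 47 and 40 tags there, over a local background of 7.16 to 12.4 tags. For a KO summit 15 to 20 tags were estimated as the least that could be listed, again a lower limit. A listing also needed a wide enough peak, and the WT peaks were 226 to 273 bp wide. Over the 5 genes, 2 of the 34 regions listed in at least 2 libraries had a peak in all WT and no KO libraries, where the share over all such regions was 0.82%. None had a peak in all KO and no WT libraries, where the share was 0.285%. The KO lists were on the whole shorter, at 60363 to 65009 peaks against 61240 to 72484, and the part of list length in these counts was not tested. With lists cut to equal length the counts stayed 2 and 0, but this cannot show the part of list length. Cutting removes only the weakest peaks of the longer lists and cannot add a KO peak. The WT peaks of both regions stood at the 31.7th percentile of their lists or higher.

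Other regions of the Egr2 window were listed in unequal numbers of KO and WT libraries. The region at +10.02 kb, also in Ado, was listed in 3 KO libraries with 26, 45 and 32 tags and in all WT libraries with 35 to 41. The region at +15.02 kb was listed in KO replicate 3 alone among KO libraries, with 26 tags, and in all WT libraries with 26 to 37. In the other direction, a region at -2.46 kb, at the 5′ end of Egr2-205, was listed in KO replicate 3 alone, with 47 tags.

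Egr3, which acts in muscle spindle formation and in lymphocytes, lies on chr14:70077203-70082614 (plus strand, ENSMUSG00000033730). No region overlapped its 5′ end. The nearest, chr14:70076674-70077013, ended 190 bp upstream of it and was used as its promoter region. It was the weakest of the 5 promoter regions, with 61, 65, 54 and 40 tags in KO and 72, 64, 87 and 53 in WT libraries. The difference was -0.11 ± 0.15 (adjusted p = 0.685 in limma).

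The strongest regions of all 5 genes lay upstream of Egr3. The region at -11.1 kb, chr14:70065720-70066476, had 440, 448, 399 and 368 tags in KO and 451, 539, 475 and 435 in WT libraries, at a mean strength percentile of 98.9. Its difference was 0.01 ± 0.07. The region at -20.0 kb, at the start of the noncoding gene Gm33524 and in an intron of Pebp4, had 493, 448, 430 and 396 tags in KO and 431, 479, 439 and 425 in WT. It was 1.15-fold higher in KO (0.20 ± 0.08), which did not pass (adjusted p = 0.0745 in limma). When libraries were left out singly, it passed only without WT replicate 4 (0.28 ± 0.07, adjusted p = 0.00526 in limma). Between them and the gene, the region at -2.28 kb had 108 to 159 tags in KO and 128 to 184 in WT, with a difference of 0.06 ± 0.10.

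On the other side of Egr3 the open regions from +19.4 kb on had the 5′ end of Bin3 as their nearest. The region at +22.9 kb, at the 5′ end of Bin3, had 90, 83, 73 and 67 tags in KO and 68, 85, 87 and 53 in WT and a difference of 0.33 ± 0.13 (adjusted p = 0.0804 in limma). With each library left out in turn, it passed only without WT replicate 3 (0.41 ± 0.14, adjusted p = 0.0465 in limma). The region at +24.4 kb, with the DR1 and PU.1 matches, differed by -0.06 ± 0.11. Just downstream of Egr3, at +7.23 kb, a weak region was listed in 2 KO libraries, with 15 and 13 tags, and in all WT libraries, with 16 to 27. The other 3 Egr3 regions were listed in 1 or 2 libraries. These were a region at -14.9 kb in KO replicates 1_2 and 1_3, with 57 and 70 tags over a background of 25.1 tags, 1 at +19.4 kb in KO replicate 3, and 1 at +23.6 kb in 1 library of each genotype.

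**Figure D4:**
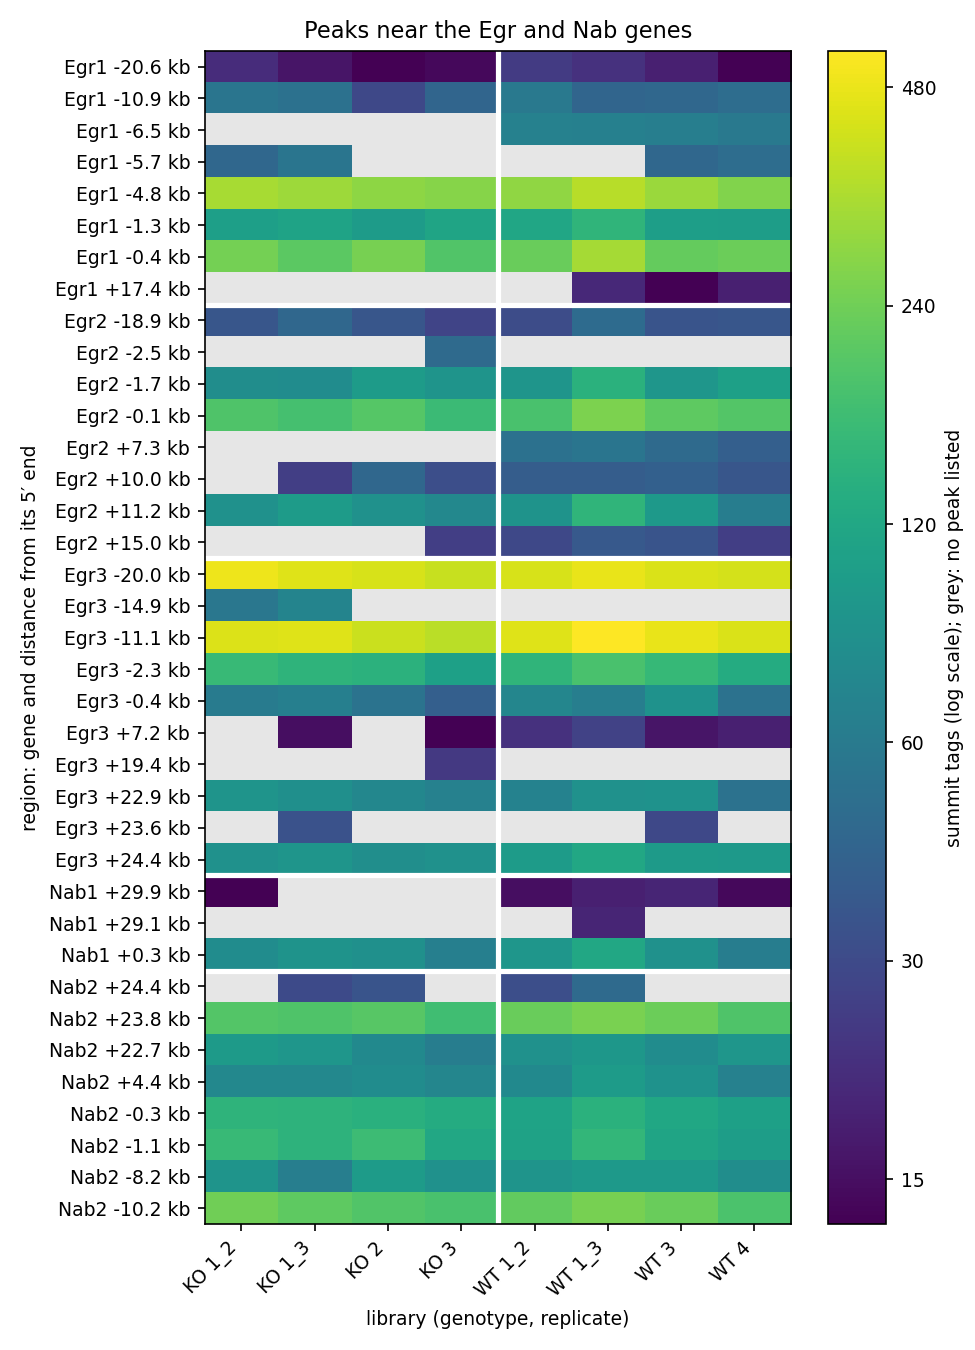
Summit tags (colour, log scale) of the 37 regions in each of the 8 libraries, with grey where no peak was listed. The regions at -6.55 kb from Egr1 and +7.34 kb from Egr2 were listed in all WT libraries and no KO library, and the brightest rows are the Egr3 regions at -20.0 kb and -11.1 kb.

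Across the libraries, the number of the 37 regions with a peak ran from 25 to 29 in KO and from 30 to 32 in WT. Of the 14 regions not listed in all 8 libraries, 8 had a peak in more WT than KO libraries, 3 in more KO than WT libraries and 3 in equally many. The same split over all partly listed regions of the series was not counted, so it is not known whether these counts differ from it. The share of all 82424 regions with a peak was also lower in the KO lists, 71.1% to 76.5%, against 71.8% to 86.6% in WT, with WT replicate 4 inside the KO range.

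The promoter regions had an order of levels that held in both genotypes. Summit tags count cuts in windows of the same 200 bp at every peak, so levels can be set side by side. They are not corrected for local background, and the order depends on this measure. By the fold over local background, Egr2 (10.87 to 11.36) stood above Egr1 (7.22 to 8.86) in every library. On the centred log2 scale the order of means was Egr1 (7.93 ± 0.17 in KO and 7.86 ± 0.16 in WT, SD, n = 4), Egr2 (7.64 ± 0.14 and 7.63 ± 0.14), Nab2 (7.23 ± 0.05 and 6.80 ± 0.09), Nab1 (6.42 ± 0.14 and 6.36 ± 0.16) and Egr3 (5.88 ± 0.20 and 5.99 ± 0.32). The ranges of neighbours in this order overlapped between libraries of a genotype for Egr1 and Egr2 in both genotypes and for Nab1 and Egr3 in WT. Within single libraries Egr1 stood above Egr2 in all 8. Nab1 stood above Egr3 in every library but WT replicate 3, where they were at 6.29 and 6.32. Egr2 and Nab2, and Nab2 and Nab1, did not overlap in either genotype.

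**Figure D5:**
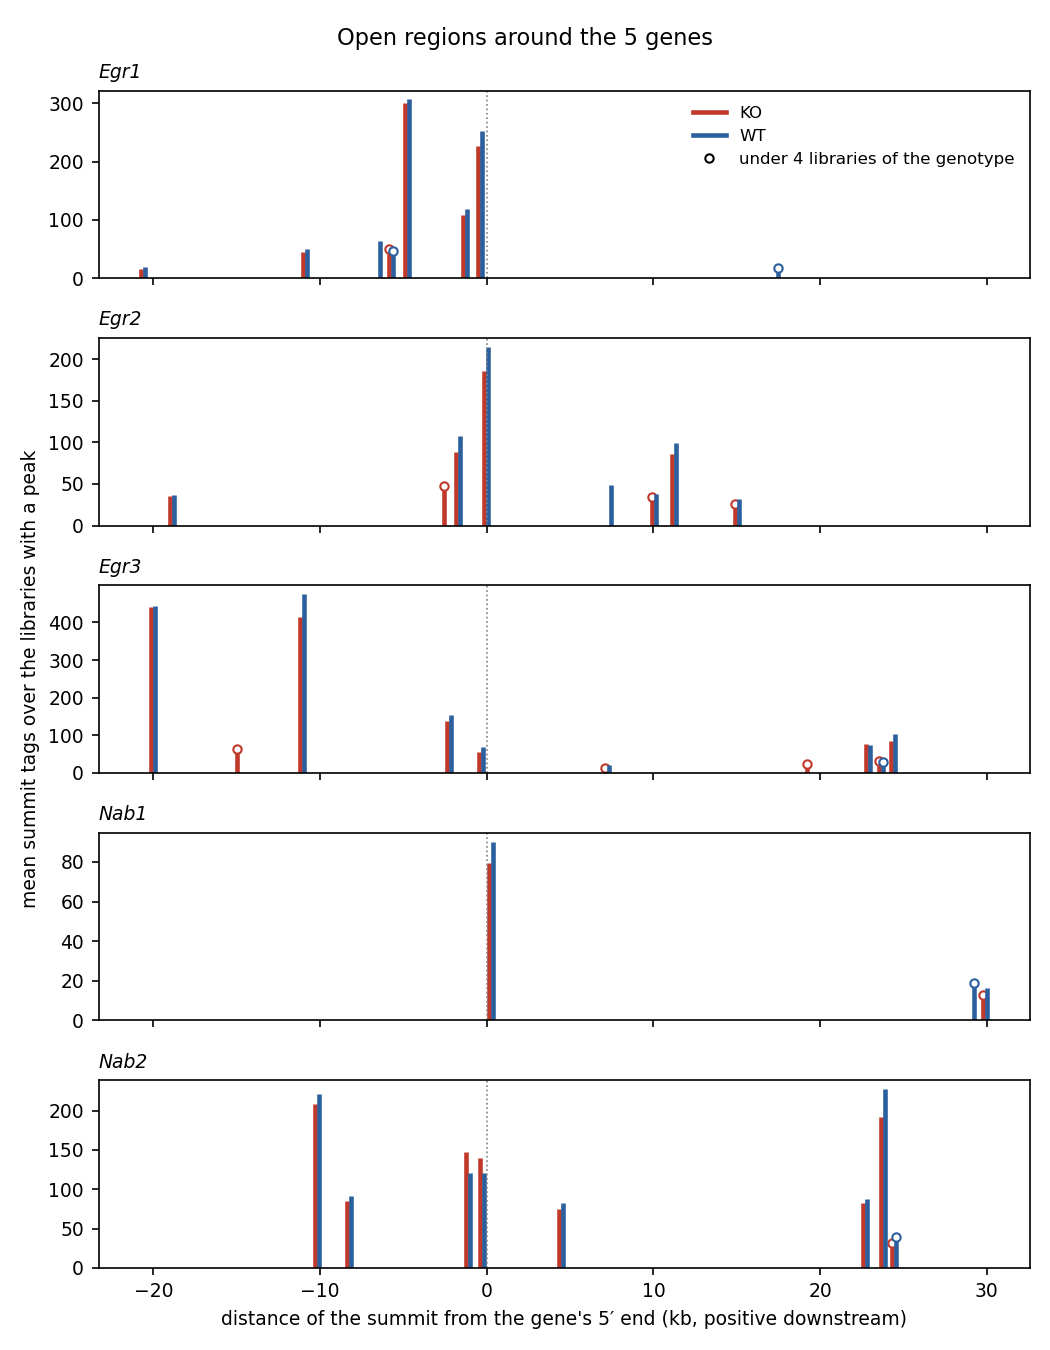
Mean summit tags over the libraries with a peak (vertical axis, a scale for each gene) against the distance of the summit from the gene's 5′ end (kb, positive downstream), for KO (red) and WT (blue), with open circles where under 4 libraries of the genotype had a peak. The highest lines at Egr3 stand at -20.0 kb and -11.1 kb, away from its 5′ end, while at Egr2 and Nab1 the highest stand at the 5′ end.

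Other promoters with the most similar values over the 8 libraries were sought among 11052 protein-coding promoter regions, by the root mean square difference of centred log2 tags. For Egr1 the nearest were Ets2 (0.08) and Zfp319 (0.09), for Egr2 Fbxw11 (0.07) and Grcc10 (0.07), and for Egr3 Plcb2 (0.15) and Pick1 (0.17). For Nab1 they were Spdya (0.09) and Nsun4 (0.09). For Nab2 they were Plekho2 (0.06) and Cep57l1 (0.08), whose own differences, KO minus WT, were 0.50 and 0.39. Differences close to that of Nab2 follow from this choice, which used the same 8 libraries, and are no separate evidence. The median over all promoters searched was 0.81 to 1.30. This likeness describes these libraries only.

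Genes that act with EGR and NAB proteins were described by the same windows of 20 kb. The upstream regulators were Srf, Elk1, Elk3, Elk4, Mrtfa, Mrtfb and Creb1. Of their 53 tested regions, 4 were lower and 4 higher in KO, beside 7.03% and 5.81% of all regions tested. The Srf promoter, with 307 to 343 tags in KO and 355 to 410 in WT, had a difference of 0.01 ± 0.08, and the Creb1 promoter was 0.30 ± 0.08 higher (adjusted p = 0.01002 in limma). Both called Mrtfb regions (-0.37 ± 0.10 and -0.27 ± 0.08) and the called Mrtfa region (-0.79 ± 0.19) were lower in KO, while Elk3 had 1 lower and 2 higher regions and the Elk1 window 1 higher.

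Of the chromatin partners, Chd4, the NuRD ATPase that NAB2 recruits, had 2 regions lower in KO (-0.57 ± 0.17 and -0.84 ± 0.19, adjusted p = 0.0181 and 0.00155 in limma) among its 9 tested, beside 7.03% of all regions tested. Its promoter region differed by 0.38 ± 0.17 in the other direction and did not pass (adjusted p = 0.139). None of the 4 tested Chd3 regions was called. Of the relatives that bind similar DNA, Egr4 had no peak in its window, and Wt1 had 1 region, at its promoter, listed in 3 WT libraries with 12, 15 and 12 tags and in no KO library. The Wt1 tags were near the smallest summits in the lists, 6 to 9 tags.

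Among 13 other immediate early genes, 12 of 106 tested regions were higher in KO and 4 lower, beside 5.81% and 7.03% of all regions tested. Of their 12 promoters tested, 1 passed, that of Btg2, an antiproliferative gene, which was 0.28 ± 0.08 higher in KO (adjusted p = 0.0165 in limma). The Fos window held 2 higher regions (0.41 ± 0.08 and 0.26 ± 0.09), 1 lower region (-0.43 ± 0.12) and 1 listed in all WT and no KO libraries, and its promoter differed by 0.20 ± 0.10 (adjusted p = 0.210). Dusp1, a phosphatase of MAP kinases, had 2 higher regions (0.86 ± 0.18 and 0.30 ± 0.09) and Dusp5 2 lower ones (-0.36 ± 0.12 and -0.65 ± 0.12). Btg2 had a further higher region (0.30 ± 0.09) and a lower one (-0.36 ± 0.11), Junb 2 higher ones (0.27 ± 0.09 and 0.32 ± 0.10), Nr4a1 2 (0.23 ± 0.08 and 0.33 ± 0.11), Ier2 1 (0.41 ± 0.12) and Fosb 1 (0.47 ± 0.14). A CArG box was found near the summit in 8 of the 125 regions of these genes listed in at least 2 libraries (6.40%), at Btg2, Dusp1, Dusp5, Fos, Fosb, Junb and Zfp36, and in 3 of the 81 such regions of the upstream regulators (3.70%).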

How the data were processed

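Per the labels, the 8 libraries were ATAC-seq of mouse AMs. The methods state that adapters were removed with Cutadapt and that Bowtie2 was used for alignment to mm10. The authors then discarded duplicates, kept properly paired reads of high mapping quality and called peaks with MACS3 in each library, with cuts extended to 200 bp and a q-value of 0.05. Each deposited list gives the fold, a ratio of summit pileup plus 1 over local background plus 1, and the −log10 p-value and −log10 q-value of each peak. The lists hold no read counts, so the study's edgeR test could not be repeated here.

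The whole number of summit tags that yields both the fold and the Poisson p-value was found for 100.0% of peaks, to a relative error of 1e-05. Tags were compared as log2(tags + 0.5), centred on each library's median over the 47499 regions listed in all 8 libraries, with limma 3.58.1 (trended variance, R 4.3.3), tested on simulated data, and Benjamini-Hochberg adjustment over all of them. A fold change on this scale slightly understates that of low regions. A missing peak means that the threshold was not reached against the local background or that the interval was too short. Precision depends on depth, which is known here only through the summit tags and the background of 1.12 to 2.26 tags per 200 bp. Gene models were GENCODE M21 (basic set), sequences RefSeq GRCm38.p6; 0 chromosomes had a peak past the reference's end, and 2 of the 5 genes (Egr1 and Egr3) were not among the promoter sequences used. A promoter region overlaps a 5′ end of the gene, and the one with the most tags was used where several did.

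The genes, lists and motifs were chosen with earlier results of these data known. Regions were named singly where they held a promoter, were called, were listed in at least 3 libraries of one genotype and none of the other, or were the strongest of a gene, and the other regions are given to account for the window. The 2 most similar promoters were named for each gene. Pathway genes are given by counts, with values for called regions, and the values given for other regions of these genes were chosen after they were seen. The alternatives were other scalings, pseudocounts, windows, groupings of peaks and list thresholds, and leaving out each library. Some sequences and 1 marker list are not reported here.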

Additional observations from a re-analysis of the deposited data

Results flagged for a closer look

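Among the 46 sets of 4 libraries checked (23 regions in 2 genotypes), 3 held a library far from the other 3, by a test that flags about 5% of sets by chance. At the Egr1 region at -10.9 kb, KO replicate 2 was lowest, at 5.06 on the centred log2 scale (29 tags), against 5.72 to 5.79. At the Egr3 region at -2.28 kb, WT replicate 1_3 was lowest, at 7.10 (184 tags), against 7.17 to 7.18. At the Nab2 region at -10.2 kb, WT replicate 1_3 was again lowest, at 7.55 (251 tags), against 7.71 to 7.74. None of these regions was called, and neither Nab2 region that was called held such a library.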

How the results depend on the processing

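The count of regions higher in KO was 2 in the analysis reported. It fell to 0 with scaling by genome-wide background tags, where the Nab2 promoter difference was 0.37, and to 0 when only the 10 tested regions whose nearest 5′ end belongs to 1 of the 5 genes were kept, because both called regions lie nearer Nemp1. With each library left out in turn it was 2 to 4. It was 4 without WT replicate 4, when the Egr1 region at -4.79 kb and the Egr3 region at -20.0 kb were added. It was 3 without WT replicate 3, when the Egr3 region at +22.9 kb was added. The count of regions lower in KO was 0 under all 20 alternatives. The count of regions listed in all WT and no KO libraries was 1 instead of 2 when only regions nearest to 1 of the genes were kept, and 2 to 3 with each library left out. The Nab2 promoter difference was 0.40 to 0.47 with each library left out.

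The other promoter differences, none of which passed the test, changed sign under some alternatives. Egr2 was -0.0454 with scaling by background tags and -0.039 with quantile normalisation, and Nab1 was -0.0417 with the tags of the nearest summit. With each library left out, Egr1 ran from -0.0033 to 0.13, Egr2 from -0.0565 to 0.0708, Egr3 from -0.25 to 0.00 and Nab1 from -0.0098 to 0.10. The causes were not tested.

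Both genotypes share the replicate numbers 1_2, 1_3 and 3. Correlations of same-numbered libraries' deviations were 0.06, 0.12 and 0.04, not all over 0.1, so the numbers were not taken to pair the libraries, although each of the 6 correlated best with its own number, a hint from the data. With the replicate number as a block on these 6 libraries, 4 regions were higher in KO, the 2 at Nab2, the Egr1 region at -4.79 kb (adjusted p = 0.0326 in limma) and the Egr3 region at -20.0 kb (0.00173). The Nab2 promoter difference was 0.45 and that of Nab1 was -0.0627. The same 6 libraries without the block, chosen after seeing the data, gave 3 regions, without the Egr1 region and with the Egr3 region at an adjusted p of 0.0170 in limma, and -0.0627 for Nab1.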
